A study of Mus musculus with 28 samples.

Results

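Domains of dimethylated histone H3 lysine 9 (H3K9me2) found after EHMT2 depletion were compared between mESCs and 2-cell-like cells (2CLCs). All domains on chromosomes 1 to 19 of the deposited mESC dTAG and 2CLC dTAG sets were taken. These were 6770 mESC and 8281 2CLC domains, 15051 of the 31304 domains in the series. Both groups came from the mouse line EHMT2-dTAG-mcherry MERV-GFP, a BL6/129 hybrid whose endogenous Ehmt2 carries a degron, grown in serum with LIF and given the degrader dTAG-13 for 72 h. Cells were then sorted on a MERVL-GFP reporter into GFP-negative mESCs and GFP-positive 2CLCs. Each condition has 3 immunoprecipitation and 3 input libraries, made with antibody ab1220 and ULI-NChIP, in which native chromatin from small cell numbers is digested and precipitated. DMSO-treated mESCs and 2CLCs of the same line, sorted in the same way, served as the background. All experiments used a single clone of this line. The labels name the retinoic acid receptor agonist TTNBP for 2 of the replicates without saying which, whereas the methods describe its use in these sorted cells without that limit. The methods also describe feeder fibroblasts in mESC culture, and without expression values neither cell state could be checked against its marker genes and feeder cells in the GFP-negative gate could not be counted.

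H3K9me2 is deposited mainly by the EHMT1:EHMT2 complex and spreads into broad domains of repressed chromatin, which in mESCs hold many tissue-specific genes. Regions between domains are rich in expressed genes. 2CLCs arise in mESC cultures, express MERVL retrotransposons together with genes of the 2-cell embryo, and can revert to the mESC state. In the study's colony assay reversion was rare with EHMT2 present, and 2CLCs lacking EHMT2 formed almost no colonies. Each condition has 1 deposited set of domains with no values per replicate, so no test between conditions could be made and no difference below has a replicate check. A domain is a run of 5 kb bins called from the ratio of immunoprecipitation to input and says where the mark was relatively high, not how much there was. The depth behind the sets is unknown.

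The promoters below belong to genes whose start lay in a domain of 1 cell state only after depletion and in no DMSO domain, and are shown because the differing gene starts were described by the CpG dinucleotides around them. They were taken from RefSeq (GRCm38.p6), run 5′ to 3′ on the strand of the gene, and have each CpG in capitals. Hist1h2bg (chr13:23571150-23571449, plus strand) and Hist1h4d (chr13:23581318-23581617, plus strand) encode replication-dependent histones H2B and H4. Twist1 (chr12:33957421-33957720, plus strand) encodes a mesenchymal transcription factor, and Fgf5 (chr5:98253934-98254233, plus strand) a growth factor of the primed epiblast. These 4 starts lay in 2CLC domains only.
Hist1h2bg: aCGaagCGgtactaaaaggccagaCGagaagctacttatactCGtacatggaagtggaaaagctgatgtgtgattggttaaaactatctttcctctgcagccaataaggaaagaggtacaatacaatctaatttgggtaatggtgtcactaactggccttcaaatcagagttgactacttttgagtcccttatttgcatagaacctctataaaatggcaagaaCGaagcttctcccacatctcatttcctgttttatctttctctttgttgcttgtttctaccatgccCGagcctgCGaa
Hist1h4d: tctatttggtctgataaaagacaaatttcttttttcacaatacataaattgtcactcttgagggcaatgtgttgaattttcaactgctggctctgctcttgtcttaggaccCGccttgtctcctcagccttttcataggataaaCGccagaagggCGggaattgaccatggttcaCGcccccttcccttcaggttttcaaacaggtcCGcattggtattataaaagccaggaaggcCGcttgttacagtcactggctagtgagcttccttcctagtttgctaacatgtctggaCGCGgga
Twist1: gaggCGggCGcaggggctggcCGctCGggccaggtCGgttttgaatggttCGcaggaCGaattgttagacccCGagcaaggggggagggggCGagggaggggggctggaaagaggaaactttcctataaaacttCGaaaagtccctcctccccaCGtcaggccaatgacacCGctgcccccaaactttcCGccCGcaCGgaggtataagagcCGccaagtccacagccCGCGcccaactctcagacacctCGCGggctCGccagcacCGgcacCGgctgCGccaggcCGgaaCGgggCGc
Fgf5: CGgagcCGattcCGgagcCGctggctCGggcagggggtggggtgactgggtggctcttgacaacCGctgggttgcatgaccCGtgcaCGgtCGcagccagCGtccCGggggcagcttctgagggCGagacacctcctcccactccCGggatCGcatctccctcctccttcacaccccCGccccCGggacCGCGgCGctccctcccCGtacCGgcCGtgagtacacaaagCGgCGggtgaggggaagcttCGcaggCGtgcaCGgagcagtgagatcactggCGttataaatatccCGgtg
Dazl (chr17:50293571-50293870, minus strand), a germ cell RNA-binding protein, and Ntrk2 (chr13:58806319-58806618, plus strand), a neurotrophin receptor, started in mESC domains only.
Dazl: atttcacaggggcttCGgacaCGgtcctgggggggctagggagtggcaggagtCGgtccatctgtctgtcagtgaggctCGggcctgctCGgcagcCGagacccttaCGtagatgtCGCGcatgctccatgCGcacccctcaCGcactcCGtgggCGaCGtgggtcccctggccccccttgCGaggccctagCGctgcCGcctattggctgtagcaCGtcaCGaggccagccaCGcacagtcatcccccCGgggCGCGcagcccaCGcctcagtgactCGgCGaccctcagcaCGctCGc
Ntrk2: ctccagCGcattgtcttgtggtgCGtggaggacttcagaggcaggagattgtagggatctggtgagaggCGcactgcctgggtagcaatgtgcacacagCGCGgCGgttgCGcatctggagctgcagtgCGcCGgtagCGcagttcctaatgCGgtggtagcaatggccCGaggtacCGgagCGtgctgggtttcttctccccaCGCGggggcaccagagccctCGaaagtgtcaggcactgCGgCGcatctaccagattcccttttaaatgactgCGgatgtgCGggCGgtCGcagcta
The 300 bases held 7 CpGs at Hist1h2bg, 8 at Hist1h4d, 27 at Twist1, 29 at Fgf5, 28 at Dazl and 23 at Ntrk2. CpG-rich promoters were present among the genes shown for either cell state.

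After EHMT2 depletion the domains of the cell states were largely the same sequence, and more of what differed was covered in 2CLCs only. Domains covered 1098.8 Mb (44.6% of chromosomes 1 to 19) in mESC dTAG and 1149.7 Mb (46.7%) in 2CLC dTAG. They shared 990.8 Mb, which was 90.2% of the mESC and 86.2% of the 2CLC domain sequence. In mESCs alone 108 Mb was covered and in 2CLCs alone 158.9 Mb, a ratio of 1.47. In DMSO the order was opposite, with 152.1 Mb covered in mESCs alone and 86.7 Mb in 2CLCs alone, so that the ratio of 2CLC-only to mESC-only sequence was 0.57. 2CLC dTAG covered more than mESC dTAG on 18 of 19 chromosomes, by up to 5.3 percentage points on chromosome 13, and less on chromosome 8 (-1.19 points). In DMSO, 2CLCs covered more on 1 of 19 chromosomes, chromosome 16, by 0.0713 points.

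**Figure D1:**
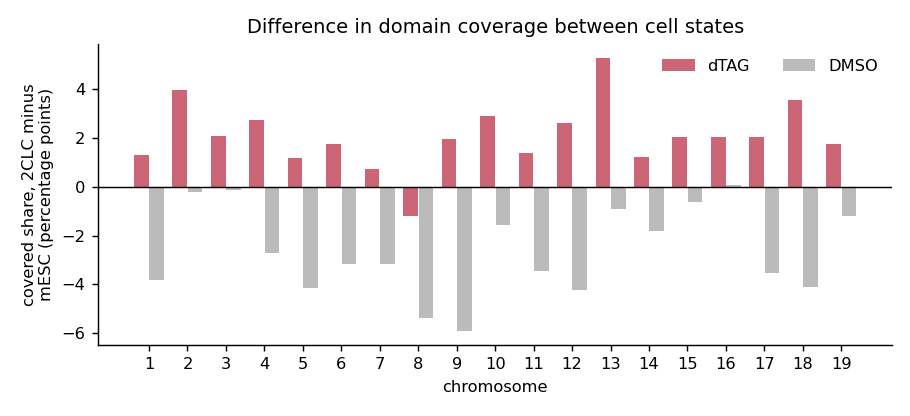
Difference in the share of each chromosome covered by H3K9me2 domains, 2CLC minus mESC in percentage points, after dTAG (red) and DMSO (grey). Red bars lie above 0 on 18 of 19 chromosomes and grey bars on 1 of 19.

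Domains found in 1 cell state only were 4.7 times as many in 2CLCs as in mESCs. In 2CLC dTAG 1491 of 8281 domains (18%, Wilson 95% interval 17.2 to 18.8) overlapped no mESC dTAG domain by even 1 base, whereas in mESC dTAG 317 of 6770 (4.68%, 4.2 to 5.21) overlapped no 2CLC dTAG domain. These intervals cover counting of domains only, and neighbouring domains are not independent. In DMSO the corresponding numbers were 777 of 3870 mESC domains (20.1%) and 669 of 3870 2CLC domains (17.3%). There were more 2CLC-only than mESC-only dTAG domains on 19 of 19 chromosomes. With only domains of at least 50 kb kept in both sets, which also removes narrow partners, 904 2CLC-only and 560 mESC-only domains were found, a ratio of 1.61. Domains of at least 50 kb set against all domains of the other set gave 386 and 102, a ratio of 3.78, and domains with under 50% of their length covered in the other set gave 2035 and 725, a ratio of 2.81. The 2CLC-only domains were narrow, with a median of 30 kb (quartiles 20 and 50 kb), as were the mESC-only domains with 35 kb (20 and 55 kb). All domains had a median of 55 kb in 2CLC dTAG and 60 kb in mESC dTAG. The nearest mESC domain lay a median of 85 kb from a 2CLC-only domain and over 100 kb from 666 (44.7%) of them. For mESC-only domains the median distance to the other state was 45 kb, and 79 (24.9%) lay over 100 kb away.

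**Figure D2:**
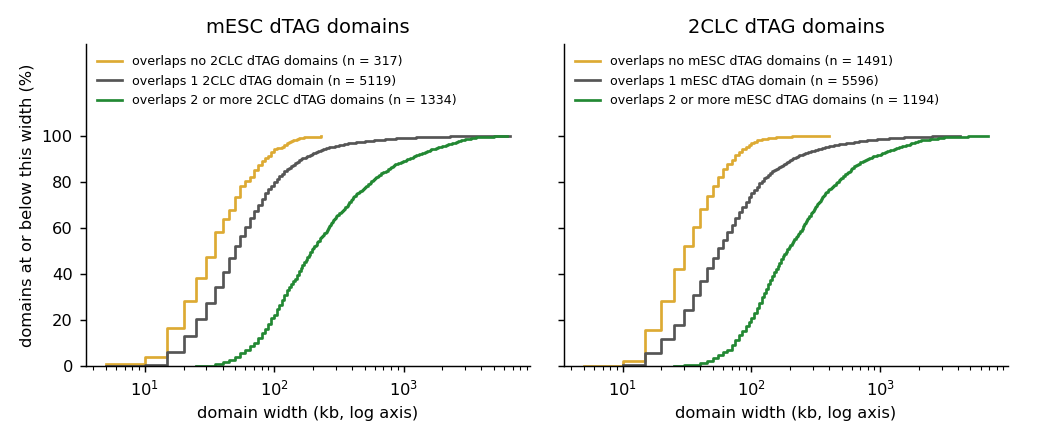
Cumulative width of mESC dTAG (left) and 2CLC dTAG (right) domains in kb on a log axis, by how many domains of the other cell state each overlapped. Domains with no partner were narrowest (medians 35 and 30 kb) and those with 2 or more partners widest (195 and 190 kb).

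Domains were joined and broken in both directions. A 2CLC domain is called joined where it overlaps 2 or more mESC domains, and a mESC domain broken where 2 or more 2CLC domains overlap it. Both are descriptions of overlap, not of a course in time. Of the 2CLC domains 1194 (14.4%) overlapped 2 or more mESC domains, and of the mESC domains 1334 (19.7%) overlapped 2 or more 2CLC domains. At most 7 mESC domains were joined in 1 2CLC domain, and at most 8 2CLC domains lay in 1 mESC domain. Broken domains outnumbered joined ones on most chromosomes, and joined domains were more numerous on 2 of 19. When overlapping domains were grouped into 6727 clusters, 3515 (52.3%) held 1 domain of each state, 361 held 1 2CLC domain over several mESC domains, 476 held 1 mESC domain over several 2CLC domains, and 567 held several of each. The last class was 8.43% of the clusters, and its clusters were long, spanning 608.6 Mb in all. Most of the breaks were small. Of the 1871 gaps that separated 2CLC domains inside mESC domains, 1076 (57.5%) were 1 bin wide, and of the 1534 gaps between mESC domains inside 2CLC domains, 896 (58.4%) were. With gaps of up to 10 kb closed in both sets the counts were 556 joined and 557 broken.

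In the 3515 pairs with 1 domain of each state, the median width was 45 kb in both cell states and the median change was 0 kb (quartiles -10 and 15 kb). In 2CLCs 1576 (44.8%) were wider, 1384 (39.4%) narrower and 555 (15.8%) of the same width. Both edges were identical in 362 pairs (10.3%), and 3926 of 7030 edges (55.8%) lay within 1 bin of each other. Edges over 50 kb apart were 297 (4.22%).

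The differing sequence was placed differently in the cell states. Separate domains made up 58.6 of 158.9 Mb (36.9%) of the 2CLC-only sequence and 13.8 of 108 Mb (12.8%) of the mESC-only sequence. Edges of shared domains held 79 Mb (49.7%) and 65.8 Mb (60.9%), and gaps between joined domains 21.3 Mb (13.4%) and 28.4 Mb (26.3%). The excess of 2CLC-only sequence thus lay mostly in separate domains, while gaps held more mESC-only sequence.

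**Figure D3:**
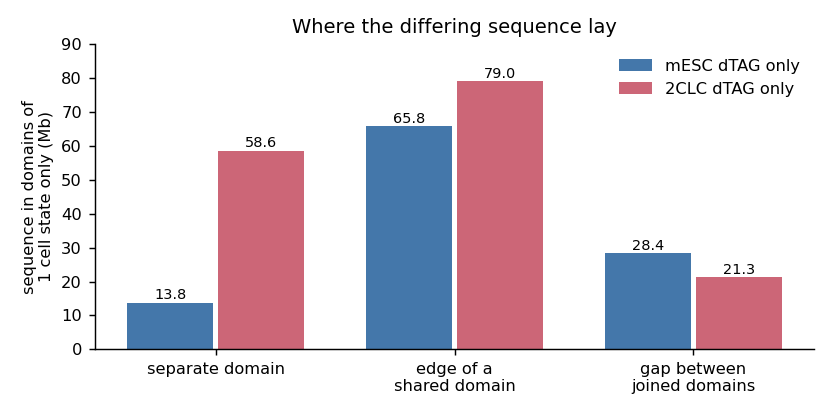
Sequence in Mb covered in mESC dTAG only (blue) and 2CLC dTAG only (red), by its place. Separate domains held 13.8 Mb in mESCs and 58.6 Mb in 2CLCs, the largest difference of the 3 places.

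The DMSO sets, which did not enter the choice of these domains, covered less of the 2CLC-only than of the mESC-only domains. Of the bases in separate 2CLC-only domains 39% were covered in mESC DMSO and 40.4% in 2CLC DMSO, and 812 of 1491 domains (54.5%) shared no base with either. Separate mESC-only domains had 64.5% of bases covered in mESC DMSO and 49.4% in 2CLC DMSO, and 121 of 317 (38.2%) lay outside both. Gaps were mostly covered in DMSO. The mESC DMSO and 2CLC DMSO domains held 86.2% and 86.6% of the gap sequence covered in 2CLCs only, and 88.5% and 84.5% of that covered in mESCs only. Gaps in 1 dTAG set that a domain of the other dTAG set spanned were thus mostly domain in DMSO. This does not extend to other sequence between domains, such as the separate domains above. Separate 2CLC-only domains were covered somewhat less than the chromosomes as a whole. Separate mESC-only domains were above that share in mESC DMSO and near it in 2CLC DMSO.

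In base composition the differing sequence stood between domains shared by both dTAG sets and sequence outside them. GC content was 39.1% in shared sequence, 40.6% in mESC-only, 41.5% in 2CLC-only and 44.5% outside both, and was 42.8% in separate 2CLC-only domains. The density of starts of protein-coding genes was 4.1 per Mb in shared sequence, 6.26 in mESC-only, 7.81 in 2CLC-only and 12.9 outside. Interspersed and simple repeats masked in the assembly took 43.5% of shared, 29.3% of mESC-only, 30.7% of 2CLC-only and 25.5% of outside sequence. Reads with several matches were kept by the authors. The share of 50-base words that occurred again on the same chromosome and strand was 13.6% in shared, 5.34% in mESC-only and 5.63% in 2CLC-only sequence. By annotation 2CLC-only sequence was 3.07% exonic, 35.4% intronic and 61.5% intergenic with respect to protein-coding genes, against 2.68%, 39.7% and 57.7% for mESC-only sequence. Separate mESC-only domains were more intronic (47.4%) than separate 2CLC-only domains (36.3%).

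The widest 2CLC-only domain was chr2:151012777-151412776 (400 kb), which held the starts of Ninl, a centrosomal protein gene, Nanp, a sialic acid pathway phosphatase gene, Gm14151 and Gm14147. None of its bases was covered in either DMSO set and the nearest mESC dTAG domain was 495 kb away. There 37.6% of 50-base words occurred again on the chromosome, against 7.57% over all sequence analysed. The second, chr8:34962963-35182962 (220 kb), also had no base in a DMSO domain. It held the start of Tnks, a poly-ADP-ribosyltransferase gene, with 1.45% repeated words. The other 3 widest overlapped Pld5 (205 kb, no start), Klf6 (205 kb, with the start of this zinc finger transcription factor gene) and Foxp2 (200 kb, no start), and 80.5% to 100% of each lay in DMSO domains. The 5 widest mESC-only domains were 150 to 230 kb and were at least 97.7% covered in mESC DMSO. The widest, on chromosome 1, overlapped no protein-coding gene. The next 3 lay within neuronal genes, Nlgn1 (215 kb, a synaptic adhesion protein), Dlg2 (170 kb, a synaptic scaffold) and Ptprt (155 kb, a receptor phosphatase), without their starts. The fifth held the start of Slco1c1, a transporter gene (150 kb), and 33.3% of it was covered in 2CLC DMSO.

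The 2CLC domain that joined most mESC domains was chr4:10559605-10899603 (340 kb), with 7 mESC domains of 15 to 60 kb that covered 70.6% of it. Its only start was that of 2610301B20Rik. The next, on chromosome 1 (2835 kb), joined 6 mESC domains over Rgs13, Rgs1, Rgs21 and Rgs18, regulators of G protein signalling, and Brinp3, with 99.1% of it covered in mESCs. The next after it, on chromosome 18 (2750 kb, 6 mESC domains), held no protein-coding start. Domains on chromosome 4 joined 5 mESC domains each over Dmrta1 and Zfp352 (1705 kb), the latter expressed in the 2-cell embryo, and over Cnbd1 and Cngb3 (1400 kb). In these 4 the mESC domains already covered 95.4% to 99.1% of the sequence. The mESC domain broken most was chr3:43199454-49504445 (6305 kb) over Pcdh10, a cell adhesion gene, and Pabpc4l, in which 8 2CLC domains covered 99.4%. A 1530 kb domain on chromosome 1 over Thsd7b also held 8 and was 84.3% covered. A 3080 kb domain over Htr5b, a serotonin receptor gene, Ddx18 and Dpp10 held 7 and was 88.6% covered. The remaining pair held 7 each, over Gm10330 and 9030624G23Rik on chromosome 12 (2170 kb), where 76.5% of 50-base words were repeated, and over the 3′ part of Ctnna3 and sequence beyond it on chromosome 10 (1590 kb, no start).

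Of 20807 protein-coding genes, 4737 started in a mESC dTAG domain and 5302 in a 2CLC dTAG domain, and 4061 (19.5%) started in both and 14829 (71.3%) in neither. Starts in a 2CLC domain only were 1241 (5.96%), and starts in a mESC domain only were 676 (3.25%), a ratio of 1.84. In DMSO 763 genes (3.67%) started in 2CLC domains only and 623 (2.99%) in mESC domains only. Many of these genes stood at domain edges. Of the 1241, 667 (53.7%) were at an edge of a shared domain, 444 (35.8%) in a separate domain and 130 (10.5%) in a gap. Of the 676, 483 (71.4%) were at an edge and 61 (9.02%) in a separate domain. The median distance to the other state was 22 kb and 8.5 kb, and at 25 kb or more 589 and 146 genes were left. In neither DMSO set lay 711 (57.3%) of the 2CLC-only and 348 (51.5%) of the mESC-only starts, and in both 304 (24.5%) and 195 (28.8%). Of all genes 21.4% started in mESC DMSO domains and 22.1% in 2CLC DMSO domains. The differing starts of either direction thus lay in DMSO domains more often than genes in general. Promoters could be matched to RefSeq for 16039 genes. Their median CpG number in 300 bases was 2 for genes in both dTAG sets, 11 for 955 2CLC-only genes, 11 for 531 mESC-only genes and 18 for genes in neither, so the differing genes of either direction stood between the others in the same way. At the RefSeq start 915 of the 955 (95.8%) and 497 of the 531 (93.6%) kept the same state.

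Replication-dependent histone genes, which supply histones in S phase, had the highest share of 2CLC-only starts among 17 gene lists. The lists were chosen with earlier results of these data known, so this rank is a description and lends no support. Of 67 genes 16 (23.9%, beside 5.96% of all genes) started in 2CLC domains only, 0 in mESC domains only, 6 in both and 45 in neither. All 16 belong to the 54 genes of the chromosome 13 cluster (chr13:21715763-23934851, 2219.1 kb), and the 13 histone genes on chromosomes 3, 6 and 11 were in neither set. The mESC dTAG set held 6 histone starts, all in 1 domain of 50 kb, and both DMSO sets held 0. In 2CLC dTAG 22 starts lay in 3 domains, 9 in one of 60 kb, 5 in one of 1080 kb and 8 in one of 115 kb. Neighbouring genes thus share a domain, and the 16 genes count as 3 regions. The 115 kb domain (chr13:23567915-23682914) held Hist1h2ae, Hist1h2bg, Hist1h2bf, Hist1h2ad, Hist1h3d and Hist1h4d, 41.3 to 51.7 kb from the nearest mESC domain, along with Hist1h2be and Hist1h1e, 1.8 and 0.4 kb from it. In the other regions the distances were 9.7 to 17.3 kb, so 6 of the 16 genes were over 25 kb away. Histone genes resemble each other in sequence and reads could be shared among them. The 3 domains had 7.5%, 17.8% and 10.8% repeated 50-base words.

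**Figure D4:**
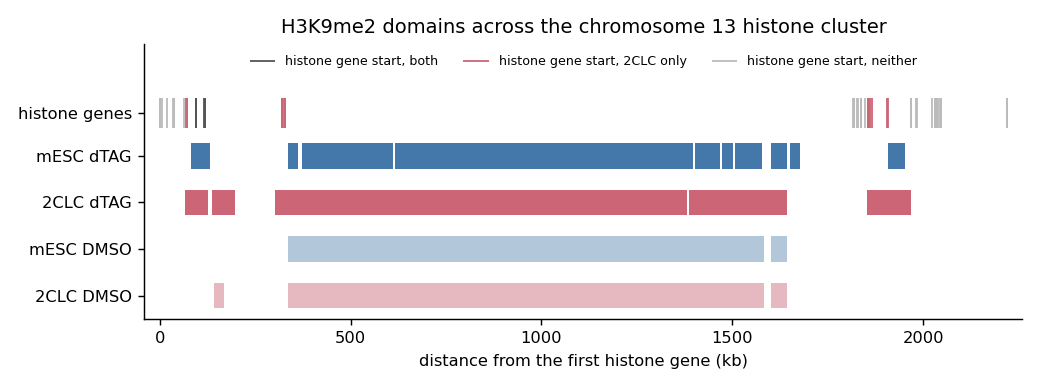
H3K9me2 domains of the 4 sorted sets (bars) across the chromosome 13 histone cluster, with each of 54 histone gene starts as a line coloured by its dTAG state, in kb from the first histone gene. Domains of 2CLC dTAG reached 22 starts, those of mESC dTAG 6 and those in DMSO 0.

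The promoters of the 16 genes had a median of 11.5 CpGs, and those of the 45 other histone genes matched had 11. CCAAT, searched on both strands, was present in 15 of the 16 (93.8%) and in 38.7% of all 16039 promoters. TATAAA was present in 13 (81.2%) and in 13.2% of all promoters. Among the 45 other histone promoters the shares were 82.2% and 48.9%. Both motifs are usual features of histone promoters, and a match of either can share its end base with a match of the other.

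Genes of the 2-cell programme mostly lay in domains of both cell states. Of 48 genes 41 (85.4%) started in both dTAG sets and 4 (8.33%) in neither, beside 19.5% and 71.3% over all genes. In 2CLC only were 2 (4.17%, beside 5.96% of all genes) and in mESC only 1 (2.08%, beside 3.25%). In DMSO 42 and 41 of the 48 started in mESC and 2CLC domains, beside 21.4% and 22.1% of all genes. The exceptions were edge and gap cases within gene clusters. Tcstv1, a 2-cell transcript gene on chromosome 13, lay in a 2CLC domain of 175 kb, 2 kb from a mESC domain. Pramef8 lay in a 2CLC domain of 630 kb, 42 kb from a mESC domain, and Pramef12 in a mESC domain of 100 kb, 29 kb from a 2CLC domain. Of 22 pluripotency genes 2 were in both (9.09%, beside 19.5% of all genes), 19 in neither (86.4%, beside 71.3%) and 1 in mESC only (4.55%, beside 3.25%). That gene was Dppa2 (chr16:48303908-48319723), whose product activates 2-cell genes together with DPPA4. Its start was 20.9 kb inside the end of a mESC domain of 1715 kb and 14.1 kb beyond the 2CLC domains, and lay in no DMSO domain.

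Most developmental regulators started in neither set. Of 41 germ layer regulators 38 (92.7%) were in neither, beside 71.3% of all genes, 3 in 2CLC only (7.32%, beside 5.96%) and 0 in mESC only (beside 3.25%). These were Sox17 (endoderm, 80 kb domain, 27.1 kb from the nearest mESC domain), Twist1 (85 kb, 9.4 kb) and Fgf5 (70 kb, 8 kb), each at an edge and 2 to 4.4 kb inside the 2CLC domain. Sox17 also lay in a 2CLC DMSO domain of 265 kb, the others in no DMSO domain. All 39 Hox genes were in neither set. Of 20 retinoic acid pathway genes Rarb, a retinoic acid receptor gene, was the 1 in 2CLC only (5%, beside 5.96% of all genes). Its GENCODE start lay in a 2CLC domain of 320 kb, in a gap between mESC domains, 52 kb from mESC domains, while its RefSeq start 243.7 kb away lay in a mESC domain only. Of 38 germline and meiosis genes Asz1 and Tex101 were in 2CLC only (5.26%, beside 5.96% of all genes) and Dazl in mESC only (2.63%, beside 3.25%). Tex101 was in a separate 35 kb domain 87 kb from mESC domains, and Asz1 and Dazl were 7.3 and 11.7 kb from the other state.

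Imprinted genes had 4 of 40 starts in 2CLC only (10%, beside 5.96% of all genes) and 2 in mESC only (5%, beside 3.25%). Mest and Copg2, neighbours on chromosome 6 that belong to the same imprinted region, differed in opposite directions. Mest (chr6:30723547-30748465) started in a separate 2CLC domain of 70 kb, 167.8 kb from the nearest mESC domain, and Copg2 (chr6:30747554-30896794) in a mESC domain of 50 kb, 24.6 kb from the nearest 2CLC domain. Neither start was in a DMSO domain. Nap1l5 lay in a separate 2CLC domain of 135 kb, and Ppp1r9a and Asb4 at edges 8.5 and 2 kb from mESC domains. Plagl1, which encodes a zinc finger growth regulator, lay in a mESC domain of 120 kb, 50.5 kb from 2CLC domains.

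Neuronal adhesion and guidance genes, which are very long, had 7 of 44 starts in 2CLC only (15.9%) and 8 in mESC only (18.2%), beside 5.96% and 3.25% over all genes. Sema3e (80 kb separate domain, 104 kb from mESC domains), Lrp1b (30.7 kb) and Cntnap2 (27 kb) were 2CLC-only starts far from the other state, and those of Ctnna2 and Opcml were 1.6 and 0.8 kb away. The mESC-only starts farthest away were those of Unc5d (11.7 kb), Ctnna3, Sema3d, Csmd3, Cdh12 and Epha6 (4.3 to 9.8 kb). The RefSeq start of Cdh12, 662.2 kb from the GENCODE start, lay in both dTAG sets. Neurotransmitter receptor genes had 6 of 94 starts in 2CLC only (6.38%), near the 5.96% of all genes, and 11 in mESC only (11.7%, beside 3.25%). Gabrr1 lay in a separate 2CLC domain of 85 kb, 127.1 kb from mESC domains, and Gabrg3 in a separate mESC domain of 60 kb, 67.6 kb from 2CLC domains, both encoding GABA receptor subunits. The other 2CLC-only receptor genes were Gabrb2, whose RefSeq start lay in neither set, Grid1, Gabrr3, Htr1b and Grik1, 0.5 to 25 kb away. Other mESC-only ones were Htr5b (31.6 kb), Chrm3 (22.9 kb), Htr2a (19.8 kb) and Drd2 (4.1 kb).

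Olfactory receptor genes had a share of 2CLC-only starts near that over all genes and a higher share of mESC-only starts. Zinc finger genes were above all genes in both directions. Of 1087 olfactory receptor genes 879 (80.9%, beside 19.5% of all genes) were in both and 9.2% (beside 71.3%) in neither. In 2CLC only were 60 (5.52%, beside 5.96%) and in mESC only 48 (4.42%, beside 3.25%). A run of 5, Olfr1411, Olfr1412, Olfr1413, Olfr1415 and Olfr1416 on chromosome 1, lay 365.7 to 475 kb from mESC domains in 2CLC domains of 30 and 80 kb. Olfr1443 followed at 121.3 kb. Of these, Olfr1411, Olfr1412 and Olfr1413 also lay in a 2CLC DMSO domain of 70 kb and Olfr1443 in one of 160 kb. Olfr1415 and Olfr1416 lay in no DMSO domain. Of the mESC-only genes Olfr2 (36.6 kb), Olfr559, Olfr1427, Olfr1428, Olfr483 and Olfr684 (20.9 to 28 kb) were farthest from 2CLC domains. All of these lay in mESC DMSO domains, and all but Olfr1427 and Olfr1428 also in 2CLC DMSO domains. Of 326 vomeronasal receptor genes 320 (98.2%, beside 19.5% of all genes) were in both. In 2CLC only were 4 (1.23%, beside 5.96%), namely Vmn2r2, Vmn1r188, Vmn1r184 and Vmn2r88 (0.3 to 12.5 kb). In mESC only was 1 (0.307%, beside 3.25%), Vmn1r216 (1.2 kb). Of 383 zinc finger genes with Zfp symbols, many of them repressors of retrotransposons, 130 (33.9%, beside 19.5% of all genes) were in both. In 2CLC only were 32 (8.36%, beside 5.96%) and in mESC only 26 (6.79%, beside 3.25%). The 2CLC-only genes farthest from mESC domains were Zfp683 (1125.6 kb), Zfp707 (380.5 kb), Zfp382 (202.3 kb), Zfp628 (199.4 kb), Zfp451 (189.4 kb) and Zfp579 (118.5 kb), each in a separate domain of 20 to 80 kb with no DMSO domain. The mESC-only ones were Zfp595, Zfp35, Zfp94, Zfp235, Zfp26 and Zfp871, each at an edge 16.3 to 34.7 kb from 2CLC domains. All 6 differing genes of the 57 clustered protocadherins, neuronal adhesion genes on chromosome 18, were mESC-only (10.5%, beside 3.25% of all genes). They were Pcdhga3, Pcdhac2, Pcdhb16, Pcdhb22, Pcdhb12 and Pcdhb2, in 5 mESC domains of 1 chromosome, so they are not independent cases. Each lay within 4.7 kb of a 2CLC domain, less than 1 bin.

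**Figure D5:**
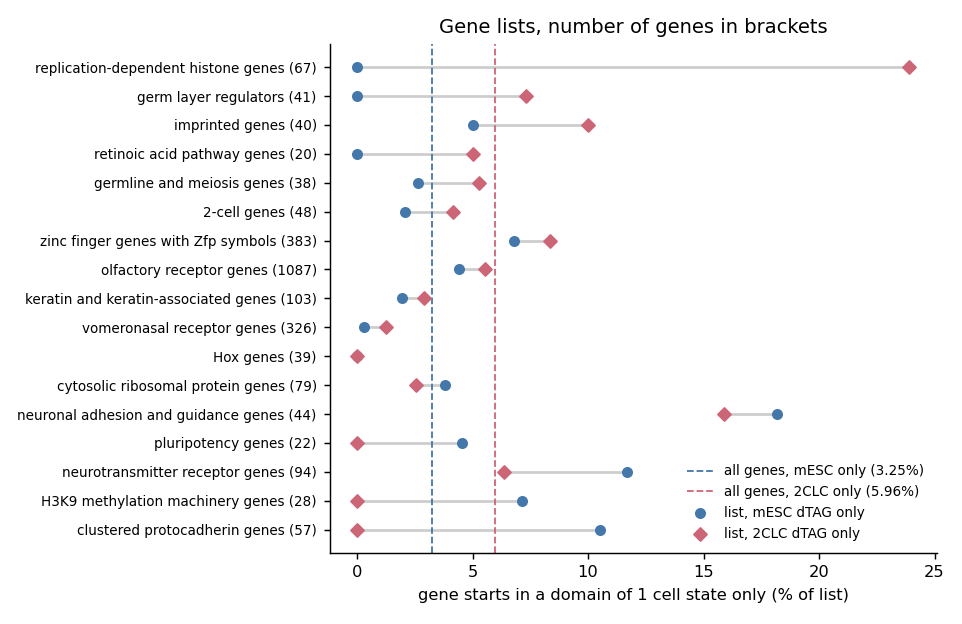
Share of each gene list (number of genes in brackets) whose starts lay in mESC dTAG domains only (blue circles) or 2CLC dTAG domains only (red diamonds), with the shares over all genes as dashed lines at 3.25% and 5.96%. Histone genes reach 23.9% in 2CLC only and 0% in mESC only.

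The remaining lists held few differing genes. Of 79 cytosolic ribosomal protein genes 69 (87.3%, beside 71.3% of all genes) were in neither. In 2CLC only were 2 (2.53%, beside 5.96%), among them Rps23 (90.1 kb from mESC domains). Rps27a, Rpl22l1 and Rpl37 were in mESC only (3.8%, beside 3.25%), 7.9 to 16.7 kb from 2CLC domains. Of 28 genes of the H3K9 methylation machinery 24 (85.7%) were in neither, beside 71.3% of all genes, and 2 in mESC only (7.14%, beside 3.25%). These were Kdm4c, an H3K9 demethylase gene 23 kb from 2CLC domains that lay in both DMSO sets, and Setdb1, an H3K9 methyltransferase gene 2.2 kb away. Of 103 keratin and keratin-associated genes 2.91% were in 2CLC only and 1.94% in mESC only, beside 5.96% and 3.25% of all genes. The former were Krtap28-13, Krtap28-10 and Krtap5-3 (8.1 to 110.8 kb from mESC domains). The latter were Krtap9-5 and Krtap31-2 (18.8 and 6.6 kb from 2CLC domains).

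The genes farthest from any domain of the other state were farther off in 2CLCs than in mESCs. The 2CLC-only extremes come from 1241 starts measured to 6770 mESC domains, and the mESC-only extremes from 676 starts measured to 8281 2CLC domains. More starts and fewer domains to measure to make larger extremes likelier, so the comparison was not corrected for either. The 8 farthest 2CLC-only starts were those of Myo18b (1800.2 kb, a myosin), Cbx7 (1522.5 kb, a Polycomb subunit), Zfp683 (1125.6 kb), Ttll9 (1045.3 kb, a tubulin ligase family member), Rdm1 (952.5 kb), Fut2 (851.8 kb, a fucosyltransferase), Lrrc59 (795.1 kb) and Gstp2 (789.2 kb, a glutathione transferase). All lay in separate 2CLC domains of 15 to 60 kb, and none in a DMSO domain. They were 0.2 kb (Myo18b) to 22.5 kb (Rdm1) inside the domain edge. Several, such as Myo18b and Zfp683 (0.6 kb), were thus within 1 bin of it. The RefSeq start of Cbx7, 38.5 kb from the GENCODE start, lay in neither dTAG set. The 8 farthest mESC-only starts were those of the overlapping genes Gm28047 and Atf7 (928.5 and 928.1 kb, the latter a stress-responsive transcription factor), Ppp1r3c (559.8 kb, a glycogen-targeting phosphatase subunit), Gm15319 (400.2 kb), Rasgef1c (387.1 kb), Ntrk2 (291.3 kb), Cit (290.9 kb, a cytokinesis kinase) and Gm21119 (248.1 kb). Gm15319 and Gm21119 lay in a mESC domain of 2640 kb on chromosome 8, of which 13.3% was unknown bases and 52.8% of 50-base words were repeated, and in both DMSO sets. The other 6 were in separate mESC domains of 15 to 85 kb and in no DMSO domain, 0.2 kb (Ppp1r3c) to 5.9 kb (Cit) inside the domain edge.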

How the data were processed

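The deposited files hold domain positions (chromosome, start and end in mm10), with a score of 0 throughout, 1 set per sorted condition. Per the study's methods, and tools and versions in the submitters' processing notes, reads were aligned with STAR 2.7.10 so that reads with several matches were kept, duplicates were removed with Picard 2.26.0, and deepTools 3.5.1 coverage was averaged in 10 kb windows on a 5 kb grid. Bins above the 80th percentile of log2 ChIP/input were extended to a bin below the 30th. Whether replicates were pooled, or percentiles set per set, was not stated. A percentile is a relative threshold, so positions were not read as levels.

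Overlaps of at least 1 base, distances and gene starts (GENCODE M21, GRCm38) were computed in Python 3.11.15, tested on simulated domains and checked against bedtools 2.31.1, with identical counts of domains without partner. A 2CLC-only start lies in a 2CLC dTAG and in no mESC dTAG domain. Wilson intervals used scipy 1.17.1 and cover counting error only. Sequence values came from GRCm38.p6, with 50-base words sampled every 100 bases. RefSeq promoters were matched by symbol (15703 genes) or synonym (336), within 1 Mb.

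Genes named were those starting in the 5 widest 1-state domains and the 5 domains with most partners of each set (up to 6 each), list members starting in 1 state only (the 6 farthest from the other state), and the 8 farthest genes per direction. Lists and domains were chosen with earlier results of these data known. No test was made, since no set has replicates. Alternatives were a minimum width, closed gaps, chromosomes, overlap rules and gene definitions. A set whose name gives no cell state, and expression of these genes, were not used here. Some genes that this rule names are not reported here.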

Additional observations from a re-analysis of the deposited data

Results flagged for a closer look

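For domain coverage and domains without partner, the difference between cell states had opposite signs under the treatments. The share of chromosomes 1 to 19 covered by domains was 2.1 percentage points higher in 2CLCs than in mESCs after dTAG, and the same difference was -2.7 points in DMSO. The number of domains without partner, 2CLC minus mESC, was 1174 after dTAG and -108 in DMSO. Gene starts did not turn in this way, since 2CLC-only starts outnumbered mESC-only starts both after dTAG (1241 against 676) and in DMSO (763 against 623). With 1 set per condition the difference between treatments was not tested.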

How the results depend on the processing

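No paired analysis was possible because each condition has 1 set of domains and no value per replicate, so leaving out a replicate was not possible either. Of 146 alternative values of the 6 counts 135 stayed within 1.5 times the reported count. Most of these values left out 1 of the 19 chromosomes, which removes too little to move a count that far, so this tally is no measure of stability. The values that moved further came from the minimum width, closed gaps, the covered share, all annotated genes and the 25 kb distance. 2CLC-only domains outnumbered mESC-only domains in 24 of 24 settings, 2CLC-only gene starts mESC-only starts in 26 of 26, and broken domains joined ones in 23 of 23, though with gaps of up to 10 kb closed by 557 to 556. Each of these totals includes the 19 settings with 1 chromosome left out. With only domains of at least 50 kb in both sets, 904 2CLC-only and 560 mESC-only domains were found, a ratio of 1.61 in place of 4.7. An alternative chosen after seeing the data, domains of at least 50 kb against all domains of the other set, gave 386 and 102, a ratio of 3.78. Counting domains with under 50% of their length covered gave 2035 for 2CLCs and 725 for mESCs, a ratio of 2.81. All annotated genes gave 3306 2CLC-only and 1890 mESC-only starts, and starts at least 25 kb from the other state 589 and 146. With each chromosome left out in turn 1353 to 1439 2CLC-only and 292 to 310 mESC-only domains remained, with 1115 to 1208 and 623 to 658 gene starts. The count of 16 2CLC-only histone genes was 6 at 25 kb or more and 0 without chromosome 13. The depth of the libraries is unknown, so what it limits could not be measured.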

Other observations

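Some domains of 1 cell state held several differing starts. They were picked after their values were seen. The 2CLC-only domain chr7:4949656-5029655 (80 kb) held 8, Sbk2, Sbk3, Zfp579, Zfp524, Fiz1, Gm44973, Zfp865 and Ccdc106, and chr2:121437817-121532815 (95 kb) held 7, Ell3, Serf2, Hypk, Serinc4, Mfap1b, Mfap1a and Wdr76. None of these lay in a DMSO domain, and 1.75% and 26.2% of their 50-base words were repeated. Another held 7 starts on chromosome 5 (155 kb), Speer4a and 6 Gm genes, all of which lay in both DMSO sets, with 69.2% repeated words. In mESCs the domain with most differing starts, 7 on chromosome 14 (355 kb), had 80.5% repeated words, and the next, 6 on chromosome 4 (50 kb), had 82.6%. Domains with 3 or more differing starts were 63 of the 924 domains with a 2CLC-only start and 23 of the 543 with a mESC-only start.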
